A study of Sus scrofa with 18 samples.

Results

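P2RY1 and PTGFR encode G protein-coupled receptors of the cell surface: P2RY1 is a receptor for extracellular ADP and PTGFR is the receptor for prostaglandin F. Every probe set annotated to either gene was taken, which gave 2 genes of 12361 named on the arrays, each with 1 probe set of the 27558. Both genes had been picked because their signals changed over the 18 arrays described here, so their time courses are given as descriptions and without a test. The arrays measured total RNA of LLC-PK1 cells, an epithelial line from the kidney of a male Hampshire pig. The cells were grown past confluence and exposed to all-trans retinoic acid (ATRA), the ligand of the nuclear retinoic acid receptors, and were collected without exposure (0 h) or 0.5, 1, 4, 8 and 12 h into it. There were 3 arrays for each of the 6 time points, labelled as biological replicates 1, 2 and 3. The 0 h cells are the control for every later time, and no untreated cells of the later times were analysed here, so time in culture and ATRA cannot be told apart. The labels do not say whether replicates were separate cultures, so the errors measure the spread between these samples, which may be partly technical.

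Both receptors couple mainly to G proteins of the Gq family. These activate phospholipase C, which makes inositol trisphosphate and diacylglycerol, and the first releases calcium from internal stores while the second activates protein kinase C. ADP at P2RY1 comes from ATP that cells release and that ecto-enzymes break down, and prostaglandin F comes from arachidonic acid through the cyclooxygenases PTGS1 and PTGS2. In kidney epithelia, nucleotide and prostanoid receptors are known as local regulators of salt and water transport.

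Values are log2 signals as deposited, on which a difference of 1 is a doubling. The array medians ran from 5.589 to 5.67 and the upper quartiles from 7.794 to 7.862, and precision was limited by the small number of arrays. Of 15 epithelial and proximal tubule markers 10 were measured, and all 10, including EPCAM, KRT8, LRP2 and HNF4A, lay above the highest array median on all 18 arrays. All 4 measured endothelial markers, 4 of 6 leukocyte markers and 5 of 8 fibroblast and smooth muscle markers lay below the lowest array median on all 18. COL1A1, COL1A2 and CD3E lay above the highest array median throughout. For COL1A1 this holds for the probe set with the higher mean, while its second ran from 5.29 to 5.75, around the array medians. A signal from bulk RNA cannot separate the number of cells that carry a transcript from the amount per cell.

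P2RY1 was higher at every later time than at 0 h. At 0 h its log2 signal was 5.79, 5.21 and 5.17 in replicates 1, 2 and 3, and 2 of these 3 values lay below the median of their own array. At 0.5 h the values were 6.27, 5.75 and 5.67. Replicates 2 and 3 at 0.5 h were thus below replicate 1 at 0 h and the groups overlapped, although each replicate was higher than its own number at 0 h by 0.48, 0.54 and 0.50. The mean difference at 0.5 h was 0.51 ± 0.23 (SE of the fitted model, n = 3 arrays at each time here and below), or 1.42-fold.

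From 1 h on, the P2RY1 signal of every array lay above that of all 3 arrays at 0 h. The 1 h values were 6.94, 6.40 and 6.12, which put the mean at 2.14-fold that of the control (log2 difference 1.10 ± 0.23). After 4 h they were 7.30, 6.76 and 6.81, or 2.96-fold (1.57 ± 0.23). The 8 h arrays read 7.67, 7.22 and 7.26, the highest mean of the course, 3.98-fold that of the control (1.99 ± 0.23). The 12 h arrays, at 7.22, 7.24 and 7.22, were almost equal to each other, with a mean 3.58-fold that of 0 h (1.84 ± 0.23). All 12 arrays of these 4 times lay above all 3 of the control for 0.755% of all probe sets; nothing is read from this share, since the gene was picked on the same differences.

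Much of the 8 h difference was present early: the 0.5 h mean held 25.5% of it, the 1 h mean 55.0%, the 4 h mean 78.6% and the 12 h mean 92.2%, on the log2 scale. The steps between neighbouring times were 0.59 ± 0.23 from 0.5 to 1 h, 0.47 ± 0.23 from 1 to 4 h and 0.43 ± 0.23 from 4 to 8 h. All 3 replicates moved up in each of these steps, while the arrays of the neighbouring times overlapped in each. From 8 to 12 h the difference was -0.16 ± 0.23, with replicate 1 lower by 0.45 and the others within 0.04 of their 8 h values. The arrays of 4, 8 and 12 h therefore overlapped as groups. Compared by number, replicates 1, 2 and 3 were higher at 8 h than at 4 h by 0.37, 0.46 and 0.45. When all 27558 probe sets were ranked by their difference from 0 h, P2RY1 took place 262 from the top for 0.5 h, then 216, 61, 12 and 10 for the later times in order.

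PTGFR kept close to its 0 h level through 1 h, was much lower at 4 h and was higher again at 8 and 12 h. The 0 h values were 11.03, 10.73 and 10.77, the 0.5 h values 10.75, 10.80 and 10.75 and the 1 h values 10.59, 10.58 and 10.73. The mean differences from 0 h were -0.08 ± 0.23 at 0.5 h and -0.21 ± 0.23 at 1 h. Both were smaller than these standard errors, which pool the spread of all 6 time points. At 1 h, however, replicates 1, 2 and 3 differed by -0.44, -0.14 and -0.05 from the same numbers at 0 h. The SE at 1 h was 0.18 with the replicate number as a block and 0.12 from the 6 arrays compared alone, both smaller than the difference. The arrays of 0.5 h overlapped those of 0 h. Those of 1 h lay just below, as was so for 6.37% of all probe sets.

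At 4 h the PTGFR values were 9.83, 9.02 and 9.02, all far below the lowest earlier value. The mean was 2.93-fold lower than at 0 h (-1.55 ± 0.23), and replicates 1, 2 and 3 differed by -1.20, -1.70 and -1.76 from the same numbers at 0 h. The 3 arrays of 4 h lay below those of 0 h for 13.1% of all probe sets. PTGFR had place 15 from the bottom among the differences of all 27558 probe sets at this time. The step from 1 to 4 h was -1.34 ± 0.23, so most of the distance lay there.

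By 8 h the PTGFR signal was 10.92, 10.29 and 9.97, every array above all 3 of 4 h, with a step of 1.10 ± 0.23 or 2.15-fold from 4 h; the same separation held for 6.84% of all probe sets. At 12 h it was 10.80, 10.44 and 10.34. The means at 8 and 12 h had regained 71.0% and 79.8% of the distance between 4 h and 0 h on the log2 scale. They remained 0.45 ± 0.23 and 0.31 ± 0.23 below 0 h. The 8 h difference rested much on single arrays, with -0.71 when its replicate 1 was left out and -0.24 when its replicate 3 was. At 8 and 12 h replicate 1 lay within the range of the 0 h arrays. Compared by number, however, replicates 1, 2 and 3 differed from 0 h by -0.11, -0.44 and -0.80 at 8 h. At 12 h they differed by -0.22, -0.29 and -0.43. The SE at both times was 0.18 with the replicate number as a block. From the 6 arrays compared alone it was 0.24 at 8 h and 0.15 at 12 h. All 18 PTGFR values, those of 4 h included, lay above the upper quartile of their array, whereas P2RY1 started near the array median.

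**Figure D1:**
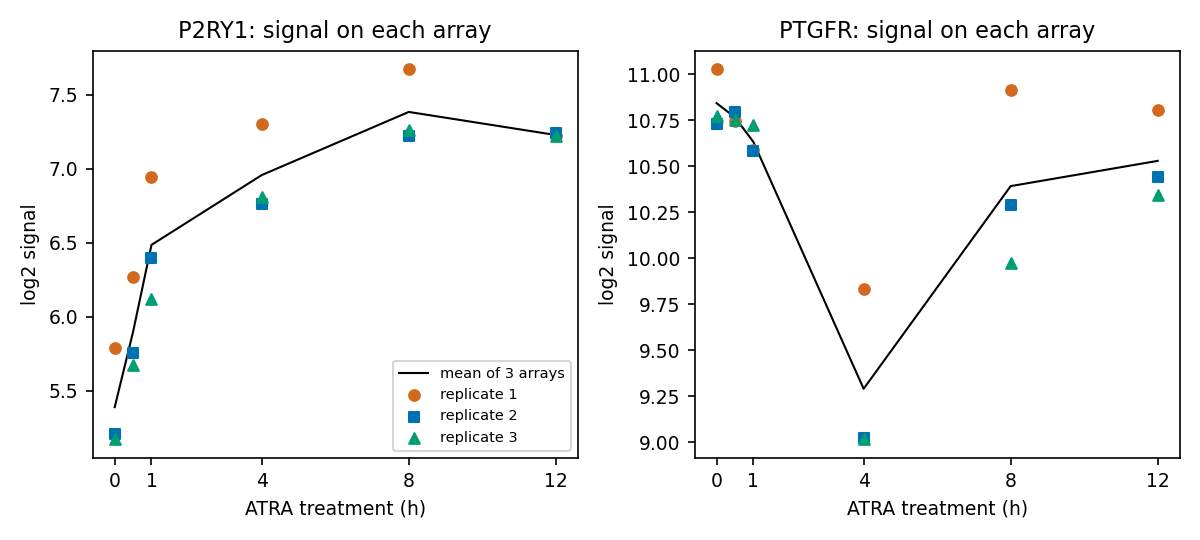
Log2 signal (vertical axes, which do not start at 0) of P2RY1 (left) and PTGFR (right) on each of the 18 arrays against hours of ATRA treatment; symbols mark the replicate number and the line joins the means of 3 arrays. The P2RY1 mean is 5.39 at 0 h and 7.38 at 8 h, while the PTGFR mean is 10.84 at 0 h, 9.29 at 4 h and 10.53 by 12 h.

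The difference between the courses was plain at 4 h, when P2RY1 was 2.96-fold above and PTGFR 2.93-fold below its own 0 h level. At 1 h P2RY1 was already 1.10 ± 0.23 above and PTGFR 0.21 ± 0.23 below its 0 h level. At 12 h P2RY1 was still 3.58-fold above, and PTGFR was 1.24-fold below.

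Replicate 1 stood above the other replicates for both genes. P2RY1 was above its time mean in replicate 1 at 5 of 6 times, by 0.31 on average, and PTGFR at 4 of 6 times, by 0.24 on average. The variation between replicates within a time had not been used to pick the genes, so it was tested whether arrays that were high for one gene were high for the other. Over 18 arrays, Pearson's r of the deviations from the time means was 0.501 (two-sided exact permutation of the arrays within each time, p = 0.0366) and Spearman's rho was 0.358 (p = 0.108). The permutation treated same-numbered arrays of different times as independent. Replicate 1 stood high at most times for both genes, so these p-values may be too small. Without the 2 arrays farthest from the median for P2RY1, replicate 1 at 0 h and at 1 h, r was 0.573 (exact permutation p = 0.103). The relation did not hold within the replicate numbers: r was -0.338 in replicate 1, 0.351 in replicate 2 and -0.716 in replicate 3 (6 arrays each, exact permutation p = 0.601, 0.438 and 0.107). Spearman's rho in the same arrays was -0.714, 0.771 and -0.829 (exact permutation p = 0.136, 0.103 and 0.0583). Adjusted over these 4 relations by the Benjamini-Hochberg method, the pooled p was 0.146. With the replicate number taken out as a block, r turned to -0.384 and rho to -0.418. The block left the differences from 0 h as they were, and their fitted SE became 0.12 for P2RY1 and 0.18 for PTGFR in place of 0.23 for either.

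**Figure D2:**
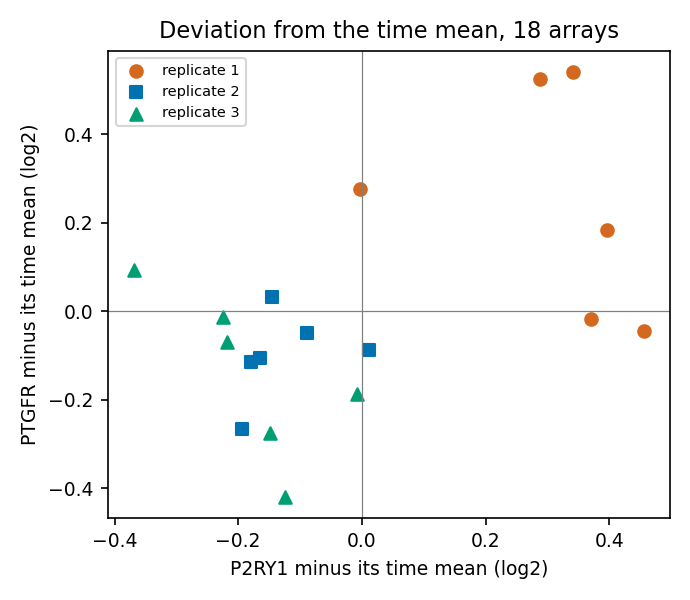
Deviation of each array from the mean of its time point, P2RY1 on the horizontal and PTGFR on the vertical axis (log2 units), 18 arrays with symbols by replicate number. The replicate 1 arrays lie mostly to the right of 0 (5 of 6), and within a replicate number no common slope is seen (r of -0.338, 0.351 and -0.716).

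The genes whose signals followed each receptor most closely were found by Pearson correlation over the 18 arrays, among the representative probe sets of all named genes; these correlations are descriptions, since the arrays share their time points and replicates. For P2RY1 they were SLC51B, a subunit of the basolateral organic solute transporter (r = 0.968), CTSO, a cysteine protease of the lysosome (0.964), MARCH3, a membrane-bound ubiquitin ligase (0.943), DHRS3, which reduces retinaldehyde to retinol (0.924), and ANKS6, a protein of the primary cilium (0.922). SLC51B was at 2.69-fold its 0 h level at 4 h and 3.21-fold at 12 h, CTSO at 2.09- and 2.52-fold, and MARCH3 at 2.37- and 2.81-fold. DHRS3 had its highest mean at 12 h, 8.91-fold that of the control, after 7.25-fold at 8 h. ANKS6, with 2.45-fold at 8 h and 2.21-fold at 12 h, shared the highest mean at 8 h with P2RY1 and CTSO.

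For PTGFR the closest gene was SESN3, a stress-induced regulator of nutrient signalling (r = 0.971 over 18 arrays). Its values at 4 h were 10.11, 8.95 and 8.76, against 10.94, 10.80 and 10.71 at 0 h. The SESN3 mean was 2.92-fold lower at 4 h and 1.23-fold lower at 12 h, close to the 2.93- and 1.24-fold of PTGFR, and replicate 1 was again the highest array at 4 h. BROX, a protein with a domain of the endosomal sorting machinery (r = 0.969), DZIP1, a protein of cilium assembly (0.968), HOMER1, a scaffold that links receptors to calcium stores (0.962), and KIAA0895 (0.962) followed with smaller dips. At 4 h they were 1.32-, 1.22-, 1.59- and 1.94-fold lower than at 0 h.

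**Figure D3:**
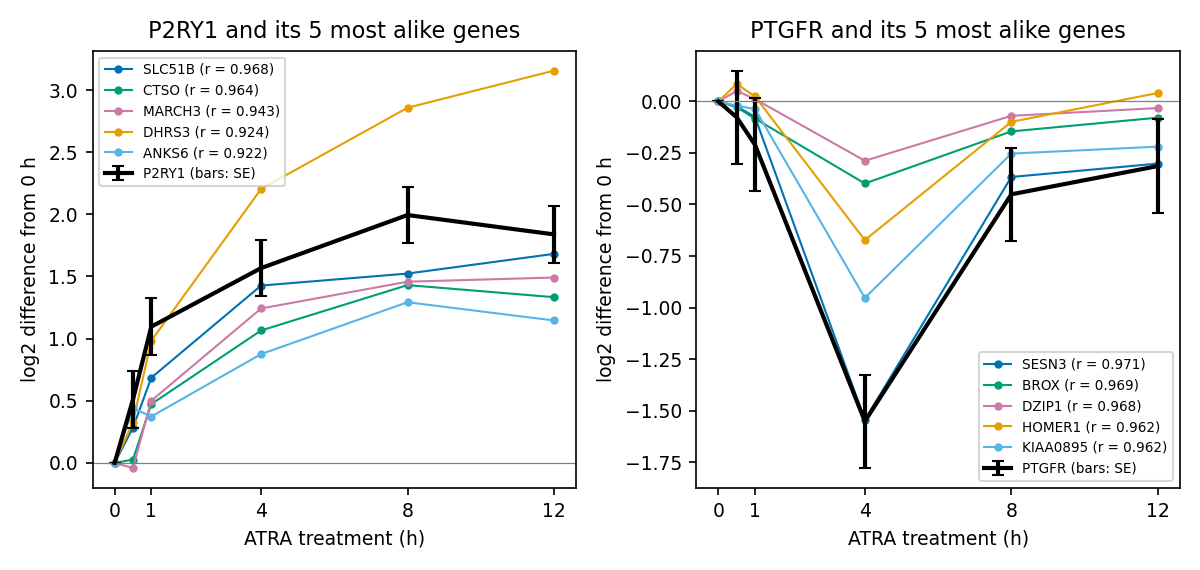
Mean log2 difference from 0 h (vertical axes) against hours of ATRA treatment for P2RY1 (left) and PTGFR (right), black with bars of ±1 SE, and for the 5 genes whose signals correlated best with each over 18 arrays (coloured lines, r in the key). The lines beside P2RY1 are all high from 8 h on, and those beside PTGFR dip at 4 h, with PTGFR at -1.55 and SESN3 at -1.54 almost overlying.

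Neighbouring genes were compared next, with order taken from the RefSeq annotation of the pig assembly Sscrofa11.1 and with the 3 nearest measured genes on each side. The genes around P2RY1 were P2RY12, IGSF10 and MBNL1 on one side and RAP2B, MME and VEPH1 on the other. None of these 6 passed limma's test (adjusted p under 0.05 over all probe sets) at any of the 5 times, and at 8 h, where P2RY1 was at 1.99, their log2 differences ran from -0.03 to 0.16. P2RY12, IGSF10, RAP2B, MME and VEPH1 had 0 h signals of 2.18 to 3.53, where a missing call says little, but MBNL1, a splicing regulator, had 0 h signals of 10.13, 9.69 and 9.70 and was 0.19 from 0 h at 4 h (adjusted p = 0.567).

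Around PTGFR, 4 of 6 neighbours fell at 4 h and none passed at another time, with 6.63% of all probe sets called lower at 4 h. DNAJB4, a co-chaperone of the HSP70 system, fell 1.84-fold (-0.88 ± 0.19, limma adjusted p = 0.00464), with values of 8.27, 7.63 and 7.93 against 8.63, 8.98 and 8.86 at 0 h. FUBP1, a single-strand DNA binding regulator of MYC, fell 1.28-fold (-0.36, adjusted p = 0.00475), the adhesion receptor gene ADGRL2 fell 1.35-fold (-0.43, adjusted p = 0.013) and the interferon-inducible gene IFI44 fell 1.75-fold (-0.81, adjusted p = 0.0391). The other two neighbours were GIPC2, at 1.28-fold lower (adjusted p = 0.0554, and 0.0382 with the replicate block), and ADGRL4, at 0.08 from 0 h with signals of 2.11 to 2.58, far below the array medians. The median log2 difference of the 6 was -0.40, against 0.02 for all probe sets. Named genes passed more often than all probe sets at 4 h, counting both directions (16.4% against 12.9%). No background of named genes with like signals was computed, so whether the neighbours differ from such genes was not tested. Leaving out arrays singly ended the IFI44 call in 4 of 6 cases (adjusted p as high as 0.192) and the ADGRL2 call without the 4 h array of replicate 2 (0.0681). Leaving out all arrays of replicate number 2 or of number 3 ended all 4 calls; the adjusted p of DNAJB4 was then 0.275 or 0.107. DNAJB4 differed from PTGFR at 1 h, when its log2 difference was 0.79 (adjusted p = 0.0656).

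**Figure D4:**
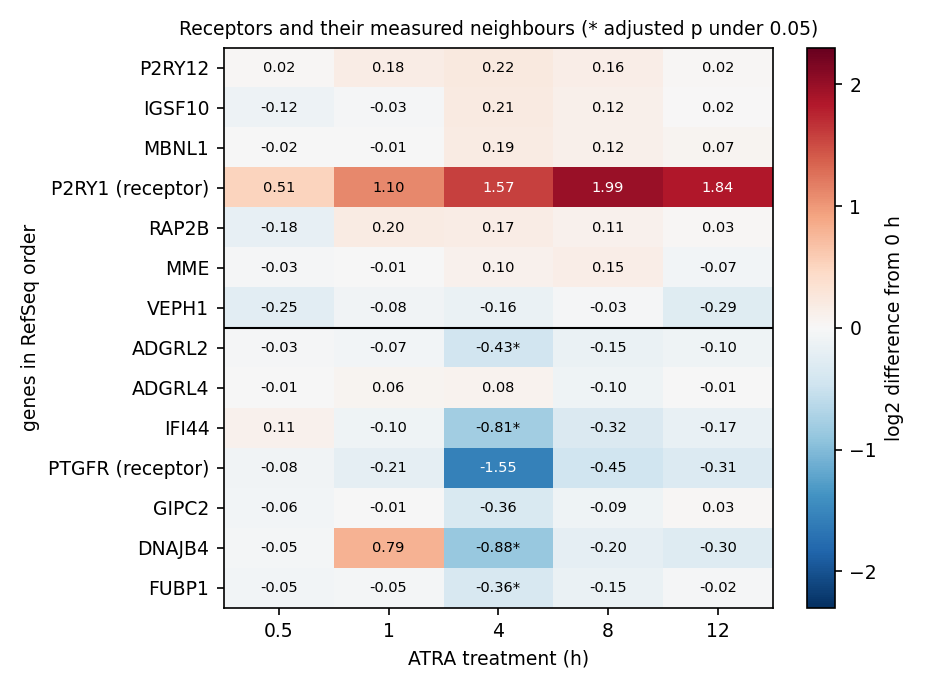
Log2 difference from 0 h at each later time (columns) for P2RY1 and PTGFR and for the 3 nearest measured genes on each side of each (rows, RefSeq order), as numbers and on a colour scale from blue (lower) to red (higher). Stars mark neighbours with a limma adjusted p under 0.05; the receptors themselves were not tested. P2RY1 has no neighbour with a star, while 4 of the 6 genes around PTGFR carry a star at 4 h.

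The other genes of nucleotide and prostanoid signalling were taken from 7 lists of 153 symbols, of which 108 were measured beside P2RY1 and PTGFR. Each later time was tested against 0 h with limma, without the replicate number in the fit unless the block is named. Of the 108 genes 0 passed at 0.5 h (5 at an unadjusted p under 0.05), and 2, 13, 6 and 6 passed after 1, 4, 8 and 12 h, or 17 genes in all. Of all probe sets 0.232%, 0.766%, 12.9%, 6.1% and 2.64% passed at these times (0.689% higher and 0.0762% lower after 1 h, 6.31% and 6.63% after 4 h, 3.23% and 2.87% after 8 h, 1.13% and 1.51% after 12 h). Of the 12361 named genes 0.227%, 0.882%, 16.4%, 7.9% and 3.27% passed, against 0%, 1.85%, 12.0%, 5.56% and 5.56% of the listed genes. The listed share was below that of the named genes at 4 and 8 h, on 13 and 6 genes. It was above it at 1 and 12 h, on 2 and 6 genes. These differences between shares were not tested. With the replicate number as a block, 1 gene passed at 0.5 h and 23 passed at 4 h, the 13 among them. Without all 6 arrays of replicate number 2, 2 of the 13 calls at 4 h were left, GRK5 and LPAR1, and 0 genes passed at 1, 8 or 12 h by limma.

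Of the 14 other receptors for nucleotides and adenosine measured, 9 lay below the lowest array median on all 18 arrays, where a missing call says little. Besides P2RY1, 6 P2Y receptors were measured, and P2RY6, a receptor for UDP, was the one that passed. It rose 1.43-fold at 4 h (0.52 ± 0.14, limma adjusted p = 0.0189), with values of 6.35, 6.28 and 6.53 against 5.82, 5.71 and 6.08 at 0 h, groups that did not overlap, and it was back at 1.01-fold by 12 h. Leaving out single arrays ended that call in 3 of 6 cases (adjusted p as high as 0.0965). P2RY4, P2RY11, P2RY12, P2RY13 and P2RY14 stayed below the lowest array median on all 18 arrays. P2RY14, a receptor for UDP-sugars, was 1.40-fold lower at 4 h (adjusted p = 0.0693) and the ion channel P2RX7, gated by ATP, 1.34-fold lower (0.0996), and both passed with the replicate block (0.039 and 0.0487). P2RX5, another ATP-gated channel, had 1 probe set that passed at 4 h (1.22-fold higher, adjusted p = 0.0495) beside the representative one that did not (1.29-fold, adjusted p = 0.137). ADORA3, an adenosine receptor with low signals, stood at 1.55-fold after 1 h (adjusted p = 0.267) and was 1.61-fold lower at 4 h than at 1 h (limma adjusted p = 0.0296). In all, 1 of the 14 receptors rose and 0 fell at 4 h, with a median log2 difference of 0.06 against 0.02 for all probe sets.

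Among 14 genes of nucleotide release, breakdown and uptake, 2 rose and 0 fell at 4 h (median 0.09). PANX1, a channel through which cells release ATP, rose 1.69-fold at 4 h (0.76 ± 0.14, limma adjusted p = 0.00191); all 3 values of 4 h, 5.77, 5.91 and 5.75, lay above those of 0 h at 5.01, 4.95 and 5.20. It was at 1.22-fold at 8 h (adjusted p = 0.303). SLC29A1, the equilibrative nucleoside transporter that clears extracellular adenosine, rose 1.75-fold by 4 h (adjusted p = 0.0145) and 2.45-fold by 8 h (1.29 ± 0.20, adjusted p = 0.00175). After 12 h it was 1.75-fold above the control (adjusted p = 0.0449). Its highest mean, like that of P2RY1, was at 8 h, with 7.95, 8.04 and 8.45 against 7.0, 6.45 and 7.11 at 0 h. For SLC29A1 the 4 h call depended on replicate 2 of the control and replicate 3 of 4 h, since leaving out either gave an adjusted p as high as 0.0831, and the 12 h call ended in 5 of 6 cases when single arrays were dropped (as high as 0.222). The ecto-nucleotidases ENTPD1 and ENTPD8, the phosphodiesterase ENPP1 and the 5'-nucleotidase NT5E, which turn ATP into ADP and adenosine, passed at none of the 5 times; ENTPD1, ENPP1 and NT5E lay below the lowest array median on all arrays.

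Of the prostanoid receptor list 6 genes were measured besides PTGFR, and 1 fell and 0 rose at 4 h (median 0.13). PTGDR2, a receptor for prostaglandin D, fell 1.35-fold at 4 h (-0.43 ± 0.12, limma adjusted p = 0.03) with values of 7.38, 7.0 and 6.86 against 7.53, 7.54 and 7.46 at 0 h, and was at 1.08-fold lower by 12 h (adjusted p = 0.794). Its lowest mean was thus at 4 h, as for PTGFR, at a smaller size, and the call ended in 5 of 6 cases when single arrays were dropped (as high as 0.162). PTGER1, PTGER2 and PTGER3, receptors for prostaglandin E, and PTGDR passed at none of the 5 times and stayed below the lowest array median throughout. With the replicate block PTGDR passed at 8 h (1.31-fold higher, limma adjusted p = 0.0282). PTGFRN, a membrane protein that associates with the prostaglandin F receptor, stood at 1.16-fold after 4 h (adjusted p = 0.451), then at 1.36-fold after 8 h (0.113, with the block 0.0395).

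Of 12 genes of prostanoid synthesis, transport and breakdown, 1 rose and 1 fell at 4 h (median 0.13). With the replicate block, the prostaglandin reductases PTGR1 (1.22-fold lower, adjusted p = 0.0249) and PTGR2 (1.3-fold lower, 0.0231) and the exporter ABCC4 (1.20-fold higher, 0.0479) passed at 4 h as well. PTGES2, a prostaglandin E synthase, rose 1.35-fold (0.44 ± 0.10, limma adjusted p = 0.00627), and its second probe set gave 1.18-fold (adjusted p = 0.521). TBXAS1, thromboxane synthase, fell 1.36-fold by 4 h (adjusted p = 0.00651) and 1.55-fold by 8 h (-0.63 ± 0.10, adjusted p = 0.00175), and was still 1.51-fold lower after 12 h (adjusted p = 0.00439). Its second probe set passed at 8 h alone (1.5-fold lower, adjusted p = 0.0155). ABCC4, which exports prostanoids and cyclic nucleotides, rose 1.27-fold at 8 h (adjusted p = 0.0354), which did not hold in any of the 6 cases with an array dropped (as high as 0.124). The cyclooxygenases did not pass at any of the 5 times. PTGS2, the inducible form, kept values between 3.05 and 3.62 on all 18 arrays, below every array median, and PTGS1 was at 1.21-fold at 4 h (adjusted p = 0.379).

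Downstream of the receptors, 22 genes of Gq, phospholipase C and receptor desensitisation were measured, of which 1 rose and 0 fell at 1 h and 1 rose and 1 fell at 4, 8 and 12 h (4 h median 0.09). With the block, RGS2 and ITPR3, an inositol trisphosphate receptor (1.3-fold higher, adjusted p = 0.0136), passed at 4 h too. GRK5, a kinase that phosphorylates and desensitises activated G protein-coupled receptors, rose 2.64-fold at 4 h (1.40 ± 0.13, limma adjusted p = 1.17e-05), with 8.14, 8.47 and 8.40 against 7.09, 6.84 and 6.89 at 0 h, and was still 1.57-fold higher after 12 h (adjusted p = 0.0121), a call that ended in 3 of 6 cases with an array dropped (as high as 0.0723). PRKCE, a protein kinase C isoform activated by diacylglycerol, fell 1.81-fold by 4 h (-0.86 ± 0.15, adjusted p = 0.00112). It was 1.48-fold lower after 8 h (0.0307) and 1.54-fold lower after 12 h (0.0333), but dropping single arrays ended the former call in 5 of 6 cases and the latter in 6 of 6 (adjusted p as high as 0.132 and 0.159). GNAQ and PLCB1, the Gq alpha subunit and a phospholipase C it activates, were 1.01-fold higher and 1.11-fold lower than the control at 4 h (adjusted p = 0.98 and 0.378).

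RGS2, which shuts off Gq alpha, rose early and came back. Its signals were low, and even its highest time mean, 5.28 at 1 h, lay below the lowest array median (5.589). It stood at 2.62-fold after 0.5 h (adjusted p = 0.0578, and 0.0052 with the replicate block) and rose 3.29-fold at 1 h (1.72 ± 0.28, limma adjusted p = 0.00342), with 4.74, 5.12 and 6.0 against 3.32, 3.52 and 3.86 at 0 h, while after 4 h it stood at 1.60-fold (adjusted p = 0.134, with the block 0.0314). The 1 h call on RGS2 ended with only the 6 arrays compared (limma adjusted p = 0.109) and without replicate number 2 (0.164). RCAN1, a calcium-induced inhibitor of calcineurin, was the gene that passed at 1 h among the 15 measured genes of calcium stores, entry and calcineurin. Its values of 10.27, 11.24 and 11.60 at 1 h lay far above the 8.76, 8.73 and 8.96 of 0 h, a rise of 4.67-fold (2.22 ± 0.24, adjusted p = 7.76e-05). Of all probe sets, 0.559% passed between 0.5 and 1 h and 10.6% between 1 and 4 h. By 12 h RCAN1 was at 0.589 of its 0 h level (limma adjusted p = 0.111, with the block 0.0443). Of these 15 genes 0 rose and 1 fell at 4 h (median -0.15): NFAT5, the transcription factor of osmotic stress, fell 1.37-fold (adjusted p = 0.00971), a call that ended when replicate 2 of the control or of 4 h was dropped (as high as 0.0594). With the block, RCAN3, a relative of RCAN1 (1.33-fold lower, adjusted p = 0.0121), and PPP3CA, the catalytic subunit of calcineurin (1.27-fold lower, 0.00645), passed at 4 h as well. RCAN2 fell 1.26-fold at 12 h (adjusted p = 0.0274), which ended in all 6 cases with an array dropped (as high as 0.136).

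Of 25 other G protein-coupled receptors, not all of them coupled to Gq, 3 rose and 1 fell at 4 h (median 0.12). With the block S1PR4, a receptor for sphingosine 1-phosphate, passed too (1.24-fold higher, adjusted p = 0.037). LPAR1, a receptor for lysophosphatidic acid, rose 2.43-fold at 4 h (1.28 ± 0.12, limma adjusted p = 1.53e-05) and, like P2RY1, was still high at 12 h (1.79-fold, adjusted p = 0.00164); it differed from P2RY1 at 1 h, where its values of 7.84, 7.83 and 7.99 were at 0.881 of the 0 h level (adjusted p = 0.964). EDNRB, an endothelin receptor, rose 2.35-fold at 4 h (adjusted p = 0.0104) and PTAFR, the receptor for platelet-activating factor, 1.87-fold (adjusted p = 0.00448), and both had come back to 1.06- and 1.15-fold by 12 h. F2RL1, a receptor activated by trypsin-like proteases, fell 1.47-fold at 4 h (-0.56 ± 0.11, adjusted p = 0.00401) and was at 1.21-fold lower by 12 h (0.261). The EDNRB call ended when replicate 2 of the control or replicate 3 of 4 h was dropped (as high as 0.0645). Of the 25 receptors 17 lay below the lowest array median on all arrays.

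Some cell type markers moved over the same times. None of the 4 endothelial and 6 leukocyte markers passed at any of the 5 times, most of them with signals below the array medians. Of the 10 epithelial and proximal tubule markers 1 rose and 3 fell at 4 h (median -0.19), and 1 rose and 4 fell at 8 h (median -0.29). Of all probe sets 6.31% rose and 6.63% fell at 4 h, and 3.23% rose and 2.87% fell at 8 h. SLC34A1, the phosphate transporter of the proximal tubule, fell 1.85-fold at 4 h (limma adjusted p = 0.000753), SLC5A2, its glucose transporter, fell 1.37-fold (0.0255) and the endocytic receptor LRP2 fell 1.33-fold (0.0117), while the keratin gene KRT8 rose 1.41-fold (0.00787). HNF4A, a transcription factor of tubule epithelium, rose 1.61-fold by 8 h (adjusted p = 0.0265) and 2.13-fold by 12 h (0.00306). The mean log2 signal of the 10 was 9.90 to 10.09 per array at 0 h, 9.90 to 9.99 at 4 h and 9.70 to 9.92 at 8 h. Of the 8 fibroblast and smooth muscle markers COL1A1 rose at 4 h, with a second probe set that did not pass (1.09-fold, adjusted p = 0.597), and ACTA2 rose at 4 h and at 8 h (2.61-fold, adjusted p = 0.0035, and 1.98-fold, 0.0475). The mean log2 signal of these 8 was 5.27 to 5.32 per array at 0 h and lay above that on every later array, with 5.38 to 5.56 after 0.5 h, 5.47 to 5.58 after 1 h, 5.63 to 5.73 after 4 h, 5.44 to 5.45 after 8 h and 5.47 to 5.57 after 12 h. ACTA2, CNN1, PDGFRB, DCN and THY1 lay below the lowest array median on all arrays. The part of these markers in the P2RY1, PTGFR and pathway differences was not tested.

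**Figure D5:**
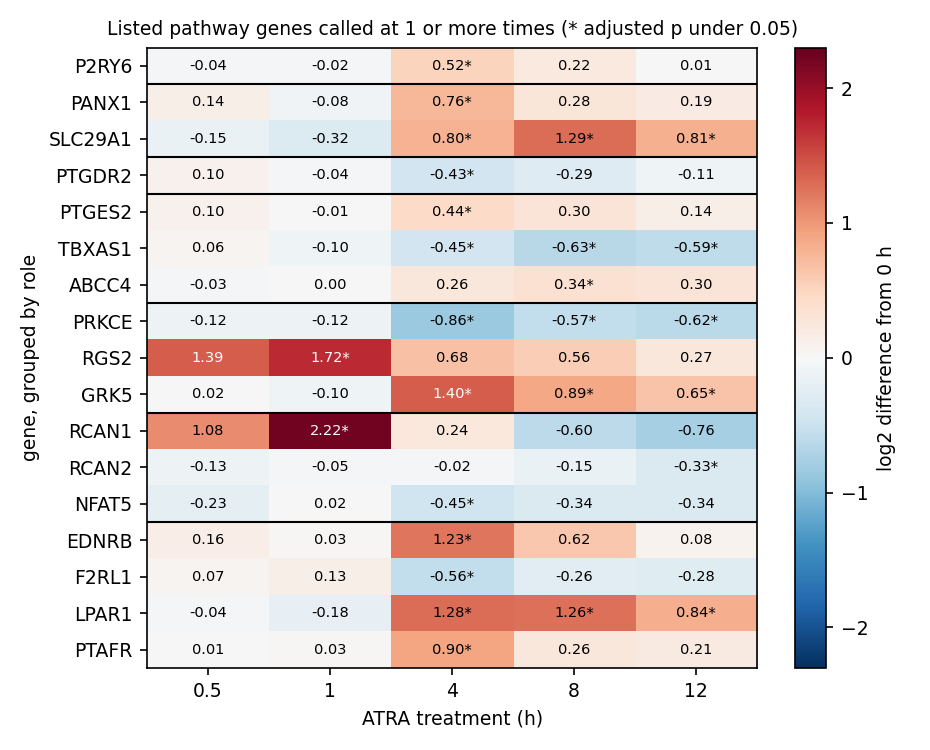
Log2 difference from 0 h at each later time (columns) for the 17 listed genes that passed in 1 or more comparisons (rows, grouped by role with lines between groups), as numbers and on a colour scale from blue (lower) to red (higher). Stars mark a limma adjusted p under 0.05; RGS2 and RCAN1 carry theirs at 1 h, and 13 genes carry one at 4 h.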

How the data were processed

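Per the labels' protocols, total RNA was extracted with an RNeasy kit and prepared, with a biotin label, for Affymetrix arrays. The authors deposited log2 signals, 1 per probe set and array, and their processing notes name Transcriptome Analysis Console 2.0.0.9; the summarization, normalization and genome build are not given in the sources used here. The values were used as deposited, without filter or offset. Of 27558 probe sets, 13323 carried 1 symbol, 357 several and 13878 none, in GEO's platform annotation, with 7 symbols updated through RefSeq identifiers. A gene with several probe sets was entered through the one with the highest mean.

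All 18 arrays were fitted with limma 3.58.1 in R 4.3.3, with 1 mean per time (12 residual and 3.34 prior degrees of freedom); p-values were two-sided and adjusted by Benjamini-Hochberg over all probe sets of a comparison. The fit was also run on simulated data. Their noise was independent between arrays, so the run cannot show how replicate numbers shared between times affect the fit. P2RY1, PTGFR and the gene lists were chosen with earlier results of these data known. Named were both receptors, the other P2Y and prostanoid receptors, called genes of each list (up to 8), the 5 most correlated genes and the 3 nearest measured neighbours on each side; the other listed genes named beside them, such as GNAQ, PLCB1, PTGS1, PTGS2, NT5E, ENTPD1, ENTPD8, ENPP1, P2RX5, P2RX7, ADORA3, the genes added by the replicate block and the cell type markers, were chosen after their values were seen.

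Replicate numbers are shared between times. The deviations of same-numbered arrays from their time means correlated at 0.105 or more with those of 0 h at 0.5, 1 and 4 h. Replicates 1, 2 and 3 gave 0.375, 0.0952 and 0.212 at 8 h and 0.172, 0.0505 and 0.148 at 12 h. Over all arrays the median was 0.242 for the same number and -0.15 for other numbers. Pairing by number was thus present, and weak for replicate 2 at 8 and 12 h. The main fit left the numbers out of its errors and calls, and the replicate block is the fit that used them. No sequence was used.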

Additional observations from a re-analysis of the deposited data

Results flagged for a closer look

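Listed genes whose difference from 0 h changed by at least 2-fold between neighbouring times, by limma's test of that step (adjusted p under 0.05), are given here as values. From 0.5 to 1 h RCAN1 rose further by 1.14 ± 0.24 on the log2 scale (adjusted p = 0.0443). From 1 to 4 h RCAN1 fell by 1.98 ± 0.24 (adjusted p = 0.000106) and RGS2 fell by 1.04 ± 0.28 (0.0232). In the same step GRK5 rose by 1.5 ± 0.13 (7.04e-06), LPAR1 by 1.47 ± 0.12 (6.35e-06), EDNRB by 1.21 ± 0.29 (0.0139) and SLC29A1 by 1.12 ± 0.20 (0.0019). These steps share the 1 h arrays, and 10.6% of all probe sets passed from 1 to 4 h.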

How the results depend on the processing

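The replicate block and the fit of only the 6 arrays compared leave the P2RY1 and PTGFR differences from 0 h as they are by construction, so they test their errors alone. Without 1 array or 1 replicate number, P2RY1 ran from 0.32 to 0.71 at 0.5 h and 1.85 to 2.19 at 8 h. PTGFR ran from -0.15 to 0.02 at 0.5 h, -0.29 to -0.10 at 1 h, -1.82 to -1.42 at 4 h, -0.71 to -0.24 at 8 h and -0.45 to -0.22 after 12 h. Averaging probe sets changes nothing for genes with 1. The count of listed genes called was 0, 2, 13, 6 and 6 at 0.5, 1, 4, 8 and 12 h. With the replicate block it was 1 at 0.5 h and 23 at 4 h. At 8 h the block added PTGDR, PTGFRN, PTGES3, SLCO2A1, ATP2B4 and NFAT5. At 12 h it added PTGES3, SLCO2A1, RCAN1, PPP3CA and NFAT5. Arrays of replicate 2 at 8 and 12 h correlated weakly with 0 h (0.0952 and 0.0505), and the count with the block was 12 and 11 there. With only the 6 arrays compared it was 2, 1, 5 and 2 for the first 4 times, with median centring 1 at 0.5 h, and with low signals filtered 1 at 1 h. Without 1 array or 1 replicate number it ran from 0 to 1 at 0.5 h, then from 0 to 2, 2 to 24, 0 to 9 and 0 to 5; leaving out replicate number 2 gave the lowest count at 4 h and leaving out number 1 the highest, in fits with fewer samples. Of 463 alternatives to 31 calls on single listed or neighbouring genes, 340 kept the call, 123 lost it and 0 changed direction. The correlation of deviations, 0.501, was 0.573 (exact permutation p = 0.103) without the 2 farthest arrays and -0.384 with the replicate block.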
